A study of Rattus norvegicus with 256 samples.

Results

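The stomach was 1 of 31 organs profiled on RAE230_2 rat genechips, and all arrays whose title names the stomach were compared with the arrays of the other 30 organs. There were 10 such arrays, 5 from males and 5 from females, beside 246 arrays of the other organs. By the labels and methods each array was made from 1 organ of 1 untreated Han Wistar-derived rat (AlpkHsdBrlHan:WIST). The organs shared by both sexes were taken from 5 males and 5 females. The authors removed some arrays at quality control, so that many organs have fewer. The other organs had from 3 arrays (epididymis) to 10 (such as the colon). No age is given in the sources used here, and the labels do not say which region of the stomach was taken. According to the methods, each tissue was sampled in a like place in every animal. Values are GCRMA signals on a log2 scale, so a difference of 1 is a 2-fold difference in signal. As in the methods, a probeset counted as expressed where its mean exceeded a threshold that corresponds to a linear signal of 100.4. In whole organs, fewer cells of a type and less RNA per cell cannot be told apart.

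The glandular stomach secretes acid, pepsinogens and mucus from pits and glands. Parietal cells pump protons with the gastric H,K-ATPase, whose catalytic subunit is encoded by Atp4a and whose beta subunit by Atp4b. Chief cells release pepsinogens, surface cells a mucous gel with trefoil peptides and gastrokines, and endocrine cells ghrelin, histamine, gastrin and somatostatin. In rats the upper part of the stomach, the forestomach, has no glands and is lined by a keratinised squamous epithelium.

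The label was borne out by both marker genes of the proton pump. Atp4b ran from 13.32 through a median of 14.66 to 14.73 over the 10 stomach arrays. Its highest mean in another organ was 3.08, in the duodenum. Atp4a ran from 12.83 through a median of 13.96 to 14.22, against 3.14 in the duodenum. All 10 stomach arrays resembled the mean of the remaining stomach arrays more than the mean of any other organ, with correlations over all probesets of 0.944 to 0.993. The organ means most like the stomach were those of the colon (r = 0.935 over 31042 probesets), caecum (0.929), bladder (0.926) and duodenum (0.925), values that share the array platform and its normalization. The stomach expressed 9632 probesets, the 18th most of 31 organs, which ranged from 7879 to 10147.

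A few arrays stood apart and bear on the results. Female 1 had the lowest mean level of parietal, chief and mucous cell genes among the stomach arrays. Its mean level of squamous and smooth muscle genes was the highest. Female 3 had squamous genes near the bottom of the scale. Male 1 carried genes of the intestinal epithelium. Outside the stomach, the array of duodenum female 1 carried gastric genes. Atp4a measured 10.90 there and between 2.14 and 2.20 in the other 8 duodenum arrays, and Barx1 measured 8.95 against 1.87 to 1.90. On 4 arrays, none of them from the stomach, the Y-linked Eif2s3y went against the sex of the title. Aorta male 3 and heart male 5 had Eif2s3y at 3.65 and 3.04 with Xist, the X-inactivation RNA of females, at 8.77 and 8.55, whereas bone marrow male 5 and female 2 carried both genes, with Eif2s3y at 6.04 and 8.43 and Xist at 7.10 and 6.82. Without these 4 arrays the count of probesets above every other organ, given next, was the same.

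A probeset was called above every other organ when its stomach mean exceeded the highest of the other 30 organ means by more than 1 log2 unit and the expression threshold, and the adjusted p of the limma test against all 30 organs was under 0.05. Of 31042 probesets, 52 (0.168%) were called. They carried 41 different gene symbols on 46 probesets, and 6 had no single symbol. With 1 probeset per gene, 37 of 14217 genes (0.26%) were called. Most of the 52 were not expressed elsewhere. Of them, 33 had a mean above the expression threshold in no other organ, 17 in 1 to 5 other organs and 2 in more. The next-highest organ was most often the duodenum (10 probesets), followed by the bone marrow (6) and skin (4). For Atp4a, Atp4b and Barx1 the place of the duodenum rested on its female 1 array, as its other arrays lay near background. Among probesets that passed the same cuts on difference and expression, every stomach array lay above all 246 other arrays for 14 (0.0451% of those measured). All 14 were among the 52, which these shared cuts make likely. Those 14 were Atp4a, Atp4b, Cblif, Cym, Pgc, Pga5, Hsd17b3, Smim38, Ghrl, Cyp2s1, Slc18a2 with 1 of its probesets, Cyp19a1 with 2, and 1 probeset without a symbol.

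The count of 52 rested on a spread shared by all organs. The SEs and adjusted p-values given below for organ comparisons used the same spread unless a fit per pair is named. For genes near background elsewhere they can understate the uncertainty of the stomach mean. When the stomach was fitted against 1 other organ at a time, 24 of the 52 were still called, and 14 of the 20 leading genes were among them. The leading genes lost were Sprr3, Gkn1, Gkn2, Tff1, Krt13 and Rflna. Without duodenum female 1 the count was 53, without stomach female 1 and female 3 it was 66, and all 52 were called in both cases. Without stomach male 1 and duodenum female 1 it was 54, with 51 of the 52.

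**Figure D1:**
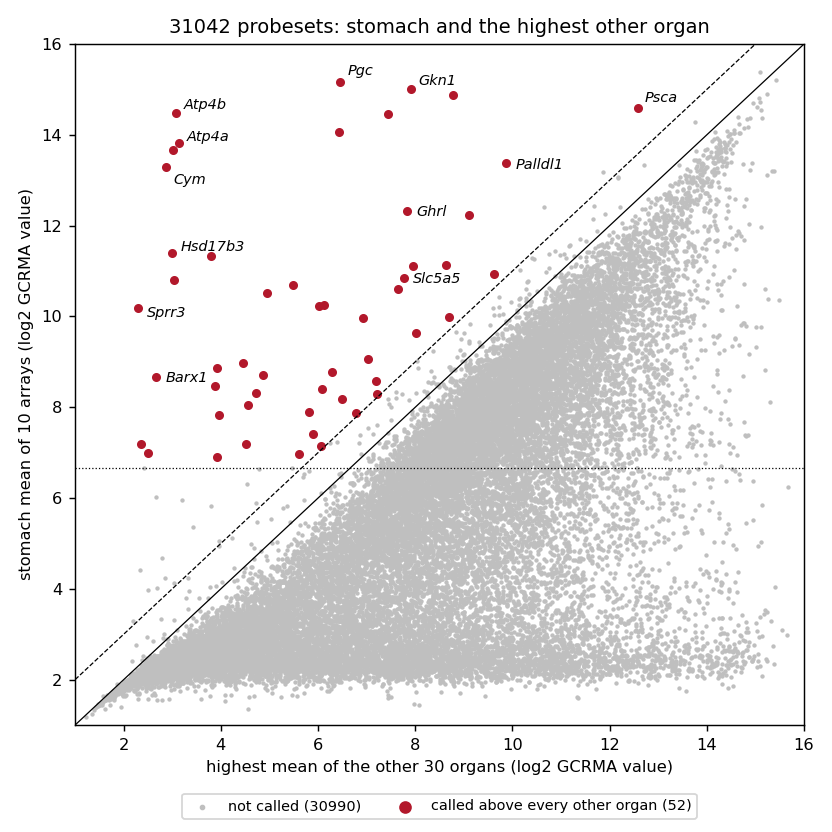
Each point is 1 of 31042 probesets, with the highest mean of the other 30 organs on the x axis and the mean of the 10 stomach arrays on the y axis, both as log2 GCRMA values. The solid line marks equality, the dashed line a difference of 1 and the dotted line the expression threshold; the 52 called probesets (red) lie above both, with Atp4a and Atp4b farthest from the dashed line.

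For 15 of the 20 leading genes no other organ had a mean above the expression threshold. For many of these, both pump genes and Cblif among them, the difference was taken against values at or near background. Neither its exact size nor the order of the genes, nor which organ came next, is then well determined. In others the next organ lay under the threshold but above background. Pgc and Muc5ac averaged 6.46 and 6.44 in the duodenum, and Cyp19a1 6.01 in the ovary. The leading gene, Atp4b, exceeded the duodenum by 11.40 log2 units (SE 0.29, adjusted p = 1.01e-77). Atp4a followed with a difference of 10.68 (SE 0.26, adjusted p = 1.29e-81). Without duodenum female 1 the differences were 12.06 and 11.45. With all arrays the duodenum was the next organ for both subunits, and for both the lowest stomach array lay above every array of the other organs.

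Secreted products of the chief cell followed, again with no other organ above the threshold. Cblif, which encodes the cobalamin-binding intrinsic factor and is made by chief cells in rats, ran from 11.60 through 13.86 to 14.22 in the stomach and averaged 3.01 in the adrenal, the next organ. Its difference of 10.66 had an SE of 0.17 (adjusted p = 2.16e-110). Cym encodes chymosin, a milk-clotting protease. It ran from 10.08 through 13.58 to 14.63, with a difference of 10.40 from the pancreas (SE 0.16, adjusted p = 3.93e-121). Within the stomach Cblif had an SD of 0.76 and Cym an SD of 1.49 (n = 10). With a fit per pair of organs the limma adjusted p-values were 1.03e-07 for Cblif and 5.64e-05 for Cym. Male 2 to male 5 had Cym between 14.56 and 14.63, and male 1 had the lowest value of all. Pgc, a pepsinogen gene, averaged 15.16 ± 0.22 (SD, n = 10) against 6.46 ± 3.72 (n = 9) in the duodenum. Pga5, the other pepsinogen on the list, ran from 6.74 in female 1 through 11.85 to 12.91, and its next organ was the duodenum at 3.79.

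The surface mucous cell gave a set of genes with very high signals. Muc5ac encodes the gel-forming mucin of the gastric surface, Gkn1 and Gkn2 encode gastrokines and Tff1 a trefoil peptide. Their stomach means were 14.06 ± 0.78, 15.01 ± 0.32, 14.46 ± 0.41 and 14.87 ± 0.42 (SD, n = 10). These genes were also measured in the duodenum, where they differed widely between arrays. Gkn1 ran there from 2.65 in male 3 and male 4 to 14.84 in female 1, with 5 arrays between 4.76 and 12.49. The difference of Gkn1 from the duodenum was 7.10 (SE 0.54, adjusted p = 3.75e-27) with the spread of all organs and had an adjusted p of 0.0925 when only the 2 organs were fitted. For Gkn2 and Tff1 the corresponding p-values were 0.134 and 0.187, so that these 3 calls depended on how the spread was estimated. Tff1 was also high in the caecum, at 8.77. Psca, a surface antigen gene, averaged 14.60 in the stomach and 12.58 in the bladder (difference 2.02, SE 0.46, adjusted p = 0.00403).

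A hormone gene and an amine transporter gene were also among the leaders. Ghrl, which encodes ghrelin, ran from 9.23 in female 1 through 12.63 to 13.30. The duodenum came next at 7.83 ± 0.28 (SD, n = 9), and no array of another organ exceeded 8.28. Slc18a2, the vesicular monoamine transporter, averaged 8.98 against 4.46 in bone marrow, and all 3 of its probesets were called. Hdc, which makes histamine and ranked beyond the 20 leaders, averaged 9.97 against 6.92, again in bone marrow (difference 3.05, SE 0.19, adjusted p = 2.00e-35).

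Steroid enzyme genes were also among the leaders. Hsd17b3, known for making testosterone in the testis, ran from 9.30 through 11.66 to 12.25 in the stomach. The highest single array elsewhere was duodenum female 1 at 6.56. No other organ expressed it, and in the testes this probeset averaged 2.99 ± 1.33, near background (difference 8.41, SE 0.22, adjusted p = 8.86e-99). Cyp19a1 encodes aromatase, which makes oestrogens from androgens. Its representative probeset averaged 10.22 ± 1.16 in the stomach and 6.01 ± 0.79 in the ovary, and all 3 of its probesets were called, with differences of 4.13 to 5.21. Cyp17a1, the 17-alpha-hydroxylase and lyase upstream of the androgens, averaged 13.04 ± 0.94 in the stomach, 12.17 in the jejunum, 11.44 in the duodenum, 10.58 in the ileum, 10.25 in the testes and 2.41 in the adrenal. The difference of 0.87 from the jejunum did not pass the test (SE 0.28, adjusted p = 0.409). The genes that begin steroid synthesis lay near the bottom of the scale in the stomach. Star, Cyp11a1 and Hsd3b1, chosen after their values were seen, averaged 2.40, 2.08 and 2.16 there, against 14.75 and 14.32 in the adrenal and 14.71 in the ovary. Hsd17b6, chosen likewise and active on androgen metabolites, averaged 10.33 in the stomach and 12.72 in the liver. All 4 enzyme genes had their lowest stomach value in female 1. So did genes of several cell types, among them Atp4a, Atp4b, Pga5, Muc5ac and Ghrl. Which cells carried the enzyme genes was not tested.

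**Figure D2:**
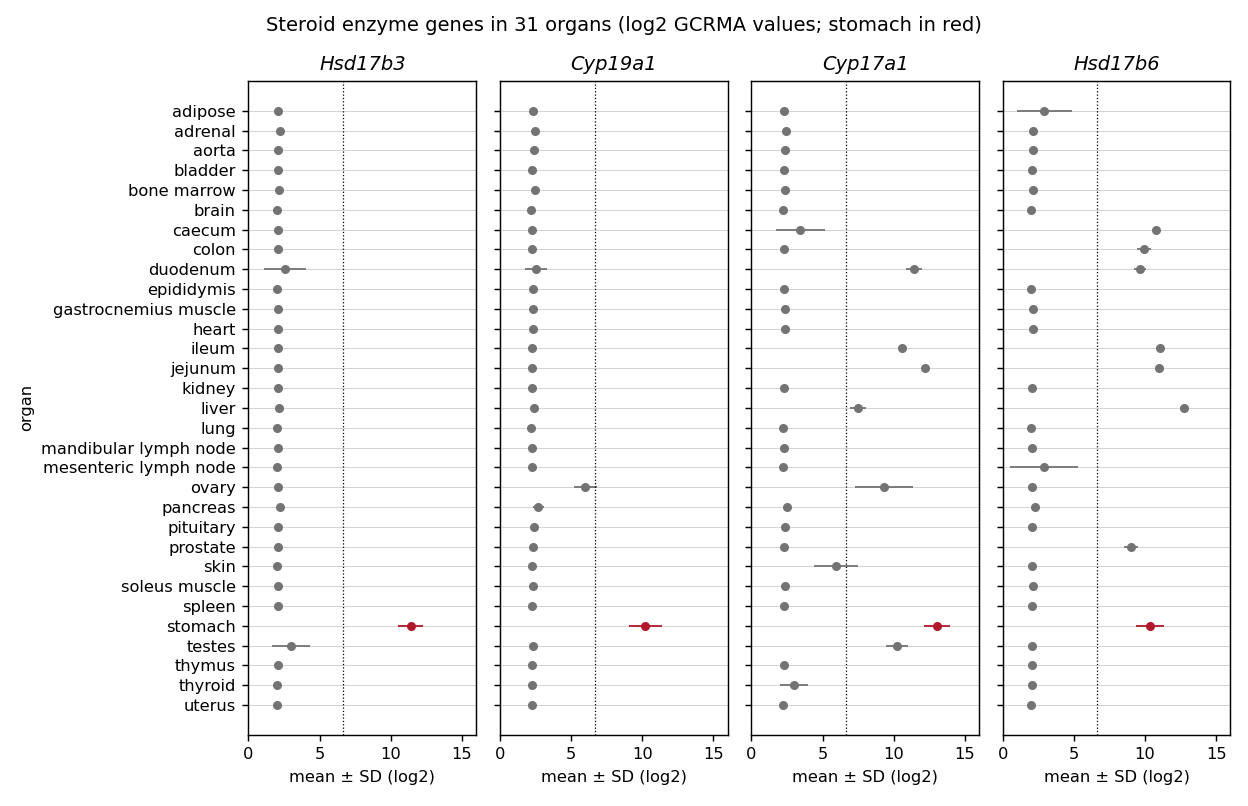
Mean log2 GCRMA value (points) with SD over arrays (lines) of 4 steroid enzyme genes in 31 organs, the stomach in red; the dotted line is the expression threshold. Hsd17b3 and Cyp19a1 pass the threshold in the stomach alone, whereas Cyp17a1 and Hsd17b6 do so in other organs as well.

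The remaining leaders came from the mesenchyme, the squamous lining and genes of less settled function. Barx1, a homeobox gene of the stomach mesenchyme, ran from 7.92 through 8.56 to 9.81. Its next organ was the duodenum at 2.67, a mean that held the 8.95 of female 1, with at most 1.90 in its other 8 arrays. Krt13, a keratin of non-cornified squamous cells, averaged 10.52 ± 3.47 and Sprr3, a cornified envelope protein gene, 10.19 ± 3.36 (SD, n = 10). Both spanned nearly the whole scale within the stomach. Their next organ was the uterus, at 4.94 and 2.31. Smim38 averaged 10.81 and Palldl1 13.37, each with gastrocnemius muscle as the next organ, at 3.04 and 9.87. Rflna had values of 8.48 to 10.40 in 8 stomach arrays and of 2.26 and 2.56 in female 4 and female 1. Slc5a5, the sodium iodide symporter of the thyroid, ranked beyond the 20 leaders and was picked out with its values known. It averaged 10.85 in the stomach and 7.76 in the thyroid (difference 3.10, SE 0.27, adjusted p = 8.38e-22). The thyroid arrays also averaged 12.76 over 13 skeletal muscle genes and 9.28 over 7 adipocyte genes, against 4.58 and 7.05 in the stomach. The part of muscle or fat tissue in the Slc5a5 difference was not tested. The gene just past the required difference was Rab27b, 1.06 above bone marrow, and, among genes whose adjusted p passed, the gene just short of it was Cystm1, 0.88 above the duodenum. Gast lay nearer, at 0.97 above the duodenum, but its adjusted p was 1.

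**Figure D3:**
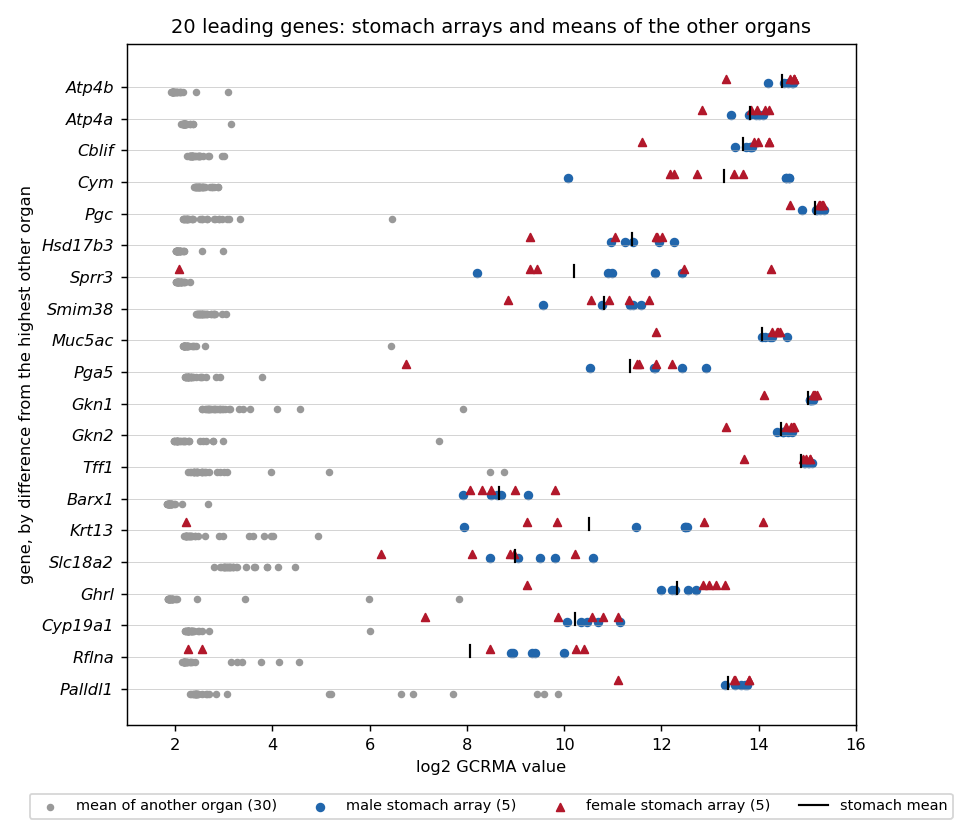
Log2 GCRMA values of the 20 genes with the largest difference between the stomach and the highest other organ, in that order from the top. Circles are the 5 male and triangles the 5 female stomach arrays, bars their mean and grey points the means of the other 30 organs; the stomach arrays stand to the right of the grey points except for female 3 in Sprr3 and Krt13 and female 1 and female 4 in Rflna.

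Upstream sequence was found in RefSeq (build GRCr8) for 14 of the 20 leading genes. The 250 bases before the annotated start were searched on both strands for TATAAA (found in the TATA box), AAGGTCA (a nuclear receptor half-site), AGATAA or TGATAA (bound by GATA factors) and TGTTTAC or TGTTTGC (bound by forkhead factors). None of these motifs contains another, but matches can share bases. Promoters are shown for 5 genes because these cover both pump subunits, intrinsic factor, a pepsinogen and Gkn2, which held the most matches of the 14 (3), and capitals mark the matches. They lie at chr16:82846079-82846328 on the plus strand, chr1:95088872-95089121 on the plus strand, chr1:218030506-218030755 on the plus strand, chr9:20763221-20763470 on the minus strand and chr4:121375344-121375593 on the plus strand, and are written in the direction of transcription.
Atp4b: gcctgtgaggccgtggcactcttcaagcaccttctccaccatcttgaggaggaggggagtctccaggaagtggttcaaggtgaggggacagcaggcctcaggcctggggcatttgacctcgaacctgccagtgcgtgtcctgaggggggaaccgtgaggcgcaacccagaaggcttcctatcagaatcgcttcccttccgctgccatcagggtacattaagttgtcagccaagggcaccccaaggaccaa
Atp4a: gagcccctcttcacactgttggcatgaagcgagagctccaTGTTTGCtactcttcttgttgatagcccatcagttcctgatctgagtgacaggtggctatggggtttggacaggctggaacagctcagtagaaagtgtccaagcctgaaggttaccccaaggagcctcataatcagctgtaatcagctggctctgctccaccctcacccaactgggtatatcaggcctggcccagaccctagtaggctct
Cblif: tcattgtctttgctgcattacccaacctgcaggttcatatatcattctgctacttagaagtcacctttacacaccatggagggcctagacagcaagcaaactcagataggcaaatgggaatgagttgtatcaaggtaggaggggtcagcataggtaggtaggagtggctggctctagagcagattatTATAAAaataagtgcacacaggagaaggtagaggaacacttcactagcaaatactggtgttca
Pgc: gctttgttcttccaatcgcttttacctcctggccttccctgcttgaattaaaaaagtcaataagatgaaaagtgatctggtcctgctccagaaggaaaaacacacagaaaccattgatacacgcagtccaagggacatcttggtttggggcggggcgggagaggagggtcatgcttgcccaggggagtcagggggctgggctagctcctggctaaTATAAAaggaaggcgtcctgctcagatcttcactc
Gkn2: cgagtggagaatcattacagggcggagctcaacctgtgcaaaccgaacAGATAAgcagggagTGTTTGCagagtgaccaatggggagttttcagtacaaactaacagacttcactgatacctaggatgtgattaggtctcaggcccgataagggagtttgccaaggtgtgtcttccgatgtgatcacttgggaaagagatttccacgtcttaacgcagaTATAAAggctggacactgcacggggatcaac
TATAAA was present in 4 of the 14 promoters (Cblif, Cym, Pgc and Gkn2) and in 12.9% of 33469 RefSeq promoters of this length. In Pgc it began 35 bases and in Gkn2 31 bases before the start, in Cym 45 and in Cblif 63. AGATAA was in 2 promoters (10.3% of all), TGATAA in 3 (7.97%) and TGTTTGC in 2 (4.16%). AAGGTCA occurred in none of the 14 (3.99% of all), nor did TGTTTAC (3.21%). The 250 bases of 7 genes, Atp4b among them, held none of these motifs. A match describes the sequence and does not show a bound site.

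A broader comparison set each stomach mean against the mean of the other 30 organ means. Above it were 1727 probesets (5.56%) or 1175 genes (8.26%), and below it 311 probesets (1%) or 226 genes (1.59%). The median difference over all genes was -0.11, and the median over all probesets moved from -0.09 to -0.12 when arrays were centred on their medians. A low call also required the other organs to average above the expression threshold. No probeset was called below every other organ (0% of 31042). With limma, 5 had an unadjusted p under 0.05 for that comparison, 3 of which averaged above that threshold in the lowest other organ, and none was lower by more than 1. The fit of each pair of organs called none either.

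Among the genes above the mean but not above every organ, the largest differences came from genes shared with the pancreas, skin or gut. Pla2g1b, a digestive phospholipase, averaged 15.38 ± 0.14 in the stomach and 15.09 ± 0.11 in the pancreas. Clps encodes colipase and averaged 14.05 and 14.56. Both lay near the top of the scale in the stomach and pancreas. Tff2, a trefoil peptide of mucous neck cells, averaged 12.87 in the stomach, 14.04 in the pancreas, 12.96 in the caecum and 12.08 in the duodenum. Stfa3, a stefin of squamous cells, averaged 12.43 in the stomach and 11.68 in the skin, with 1 stomach array, female 3, at 2.36.

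The largest differences below the mean belonged to genes of several roles. Slc39a8, a metal ion transporter, averaged 3.55 in the stomach against a mean of 7.30 over the other organs (difference -3.75, SE 0.19, adjusted p = 2.66e-49). Psmb8, a subunit of the immunoproteasome, averaged 4.89 against 8.38 (difference -3.49, SE 0.22, adjusted p = 1.55e-36). Aldh1a3, which makes retinoic acid, Mme, the peptidase neprilysin, and Dact2 were lower by 3.31, 3.16 and 3.14. None of these was the lowest of all organs by the test. Psmb8, for example, averaged 2.70 in the brain, and Slc39a8 2.58 in the pituitary. Mme measured 7.19 in stomach male 1 and 2.81 to 4.52 in the other 9 arrays.

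Gene lists for the cell types of the stomach were counted with 1 probeset per gene. They were read beside the 8.26% of all genes called above the mean. Because the lists were chosen with earlier results of these data known, a share above 8.26% can be partly built in. Of the parietal cell and acid secretion list, 13 of 16 measured genes were above the mean of the other organs and 3 above every organ, with a median difference of 4.98. The 3 were Atp4a, Atp4b and Cblif, and the last is listed there although rats make it in chief cells. The potassium channel genes Kcne2, Kcnq1 and Kcnj15 averaged 8.79, 9.18 and 10.24, and none passed the test against every organ, with means of 9.21 in the ovary, 9.01 in the pancreas and 11.13 in the kidney. Esrrg, a nuclear receptor gene, averaged 11.71 in the stomach and 11.39 in soleus muscle. Slc9a4, the basolateral sodium-proton exchanger, averaged 6.03, under the expression threshold, and exceeded the next organ by 3.37. The histamine receptor gene Hrh2 measured 2.01 ± 0.02 in the stomach, at the bottom of the scale in every array. Its single probeset differed by only -0.27 from the highest other organ, so it lay near background in every organ. It cannot show whether the stomach lacks this RNA.

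Of the list of chief cell and digestive enzyme genes, 6 of 10 were above the mean and 4 above every organ (Pgc, Pga5, Cym and Capn9). Capn9 measured 2.46 in female 1 and lost the call when the stomach was fitted with 1 organ at a time. Not every member is particular to chief cells. Ctse averaged 13.19 in the stomach and 11.86 in the bladder, and Chia, an acidic chitinase, 12.42 in the stomach and 10.64 in the lung. Neither difference, 1.33 and 1.78, passed the test against every organ (adjusted p = 0.557 and 0.124). Lipf, the gastric lipase gene, measured 2.05 ± 0.06. Its single probeset differed by -1 from the highest other organ and was under the expression threshold in every organ. It too cannot show whether the RNA is absent. Without stomach female 1 and female 3, 6 genes of this list were above every organ.

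Of the surface and neck mucous cell list, 9 of 11 genes were above the mean and 5 above every organ (Muc5ac, Gkn1, Gkn2, Tff1 and Psca), with the largest median difference of all lists, 9.15. Cldn18, a tight junction gene, averaged 11.79 in the stomach and 12.39 in the lung. Tff3, the trefoil peptide of the intestine, averaged 7.17 in the stomach and 14.13 in the jejunum, and was not called.

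Of the gastric endocrine list, 8 of 18 genes were above the mean and 3 above every organ (Ghrl, Hdc and Slc18a2), with a median difference of 1.39. Sst, encoding somatostatin, averaged 9.97 ± 1.02 in the stomach and 10.27 in the pancreas. Gast, encoding gastrin, averaged 7.22 ± 3.35 and was the most uneven hormone. It measured 13.13 in male 1, 12.08 in female 2, 9.32 in female 4, 7.20 in female 3, between 5.31 and 6.44 in 5 arrays and 2.21 in female 1. In the duodenum Gast ran from 3.67 to 10.14. Gcg, Gip, Sct and Nts, hormone genes of the intestine, measured 2.09 to 2.65 on average.

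Of the transcription factor list, 13 of 21 genes were above the mean and 2, Barx1 and Foxa3, above every organ. Foxa3 ran from 2.36 to 9.10 over the stomach arrays and lost the call when the stomach was fitted with 1 organ at a time. The list averaged 6.92 in the stomach and 6.76 in the duodenum. Gata4 averaged 9.86 in the stomach and 9.87 in the duodenum. Sox2 averaged 8.33 in the stomach and 9.94 in the pituitary. Pdx1, a factor of the duodenum and pancreas, measured 5.12 in male 1 and at most 2.28 in the other 9 arrays, against a duodenum mean of 8.94.

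The squamous list had 20 of 29 genes above the mean, with a median difference of 3.67, and 2 above every organ, Krt13 and Sprr3. Loricrin averaged 11.04 in the stomach and 13.40 in the skin, Krt1 10.90 and 12.71, Krt10 12.44 and 14.78, and Krt5, a keratin of basal cells, 7.56 and 13.40. Neither Krt13 nor Sprr3 kept the call when the stomach was fitted with 1 organ at a time (adjusted p = 1 and 0.436). The smooth muscle list had 16 of 18 genes above the mean and none above every organ. Actg2, the enteric gamma actin gene, averaged 14.01 ± 0.33 in the stomach and 14.48 in the bladder, and Myh11 13.39 ± 0.33 and 14.34. In 14 of the 18 genes the bladder was the highest other organ.

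The other lists gave shares closer to that of all genes. Of the list for interstitial cells of Cajal, enteric neurons and glia, 3 of 17 were above the mean (Vip, Ano1 and Snap25). Of the intestinal list, 3 of 20 were (Lgals4, Fabp2 and Anpep), while Cdx1 and Cdx2, which set intestinal identity, averaged 2.25 and 3.09. Of the exocrine pancreas list, 5 of 17 were, namely Clps, Cel, Ctrb1, Cela3b and Cela1. Trypsin, lipase and carboxypeptidase genes such as Prss2, Pnlip and Cpb1 averaged 2.43, 2.95 and 3.08 in the stomach. Ctrb1 ran from 4.77 to 12.18 and Cela1 from 6.86 to 12.32 over the stomach arrays, and the part of pancreas tissue in these values was not tested. In the adipocyte, mast cell, endothelium and hepatocyte lists 1 gene each was above the mean, in the skeletal muscle list 2 of 13, and in the T cell and B cell lists none of 10 and of 6. Of the respiratory chain list none of 41 passed a difference of 1, although the median difference was 0.50. No member of any list was called below the mean. In 6 of the 18 lists (chief cell, endocrine, exocrine pancreas, T cell, mast cell and hepatocyte) none could be, since the other organs averaged under the expression threshold for each gene, and in the intestinal list 2 of 20 could.

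**Figure D4:**
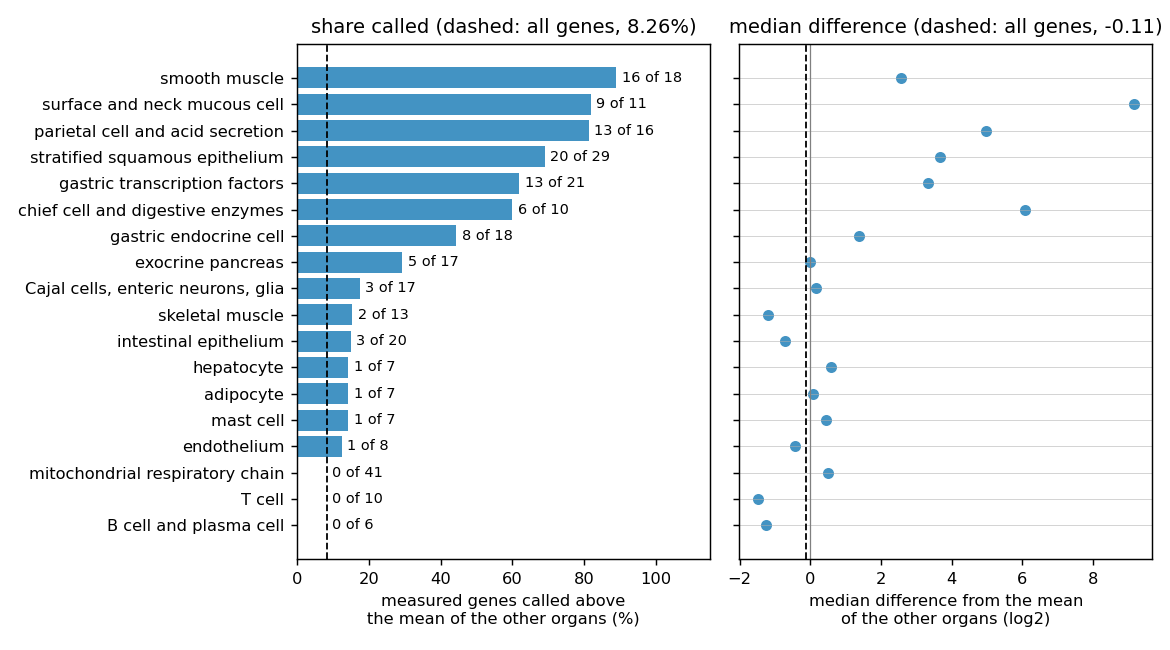
Left, share of the measured genes of 18 lists that were called above the mean of the other organs (bars, with counts) and the share over all genes (dashed line, 8.26%). Right, median log2 difference of the same genes from the mean of the other organs, with the median over all genes (dashed line, -0.11); smooth muscle has the largest share, 16 of 18, and the mucous cell list the largest median, 9.15.

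The stomach arrays differed among themselves in several of these lists. The squamous list averaged 3.93 in female 3, 6.24 in male 1, 11.80 in female 1 and 6.94 to 10.30 in the other 7 arrays. Of the 10 genes with the largest SD in the stomach, Stfa3, Loricrin, Krt13, Krt1, Sprr1a, Krtdap and Sprr3 are genes of squamous epithelium. Each of these had its lowest value in female 3, between 2.07 and 2.87. Adh6a, an alcohol dehydrogenase gene, and S100a7l2 had SDs of 3.66 each and were also lowest in female 3, at 1.91 and 2.74. All 9 were highest in female 1. The last of the 10 was Gast, with an SD of 3.35, which was highest in male 1 and lowest in female 1. Female 1 had the lowest mean of the parietal list, 7.79 against 9.59 to 10.51 in the other 9 arrays, and of the chief list, 6.85. Its smooth muscle mean was the highest, 11.93, and female 3 had the lowest, 10.11. The parietal list of female 3, at 10.31, lay within the range of the other arrays. The intestinal list averaged 6.647 in male 1 and 3.47 to 4.49 elsewhere. Alpi, the intestinal alkaline phosphatase, measured 8.55 in male 1 and 2.18 to 3.69 in the other arrays, and Cdh17, an intestinal cadherin gene, 9.51 and 2.19 to 4.26. How much forestomach, glandular mucosa, muscle or duodenum each sample held is not given in the labels, and its part in these differences was not tested.

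**Figure D5:**
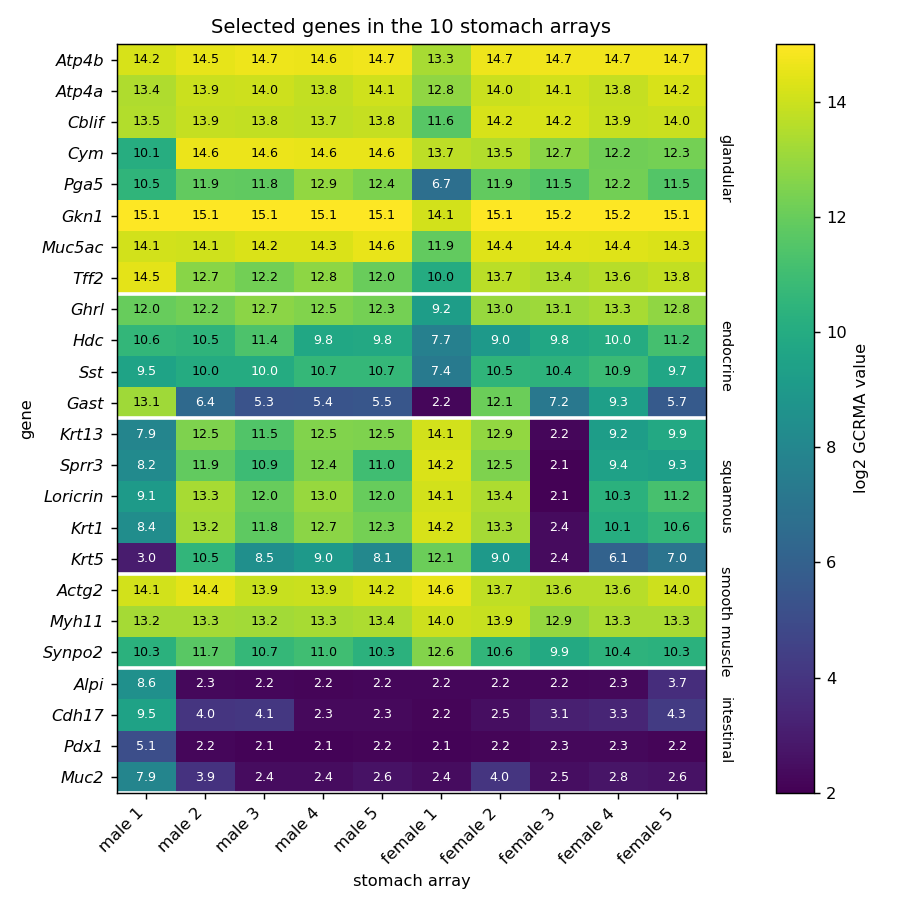
Log2 GCRMA values of 24 genes (rows, in 5 groups named at the right) in the 10 stomach arrays (columns), on 1 colour scale. Female 1 is low in endocrine genes and in glandular genes other than Cym, and high in squamous and smooth muscle genes. Female 3 is near the bottom of the scale in all 5 squamous genes, and male 1 is highest in Gast and in all 4 intestinal genes.

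Male and female stomachs were compared with the thresholds of the methods. In limma 6 of 31042 probesets (0.0193%) differed. An unadjusted p under 0.05 was found for 988 of the 31042, fewer than chance alone would give at that threshold. Of the 6, 4 map to Xist, the RNA that silences an X chromosome in females, and 1 to Eif2s3y, a translation factor gene on the Y chromosome. The last has no gene symbol in the annotation used here and averaged 2.68 in males and 10.20 in females. The paper maps all its widely female-biased probesets to Xist. It reports no sex-biased probesets in the stomach beyond those of Xist and Eif2s3y. Eif2s3y averaged 9.46 ± 0.58 in males and 2.78 ± 0.10 in females (n = 5 each, limma adjusted p = 6.26e-06). Xist (the probeset with the highest level) averaged 2.39 ± 0.05 and 10.87 ± 0.70 (limma adjusted p = 4.89e-06). The methods' t-test called the same number, 6, all shared. When the spread of all organs was used, 66 probesets passed, among them Scd, higher in females by 3.52, and Reg3b, higher in males by 3.68. In the fit of the stomach alone both had an adjusted p of 1, and both were chosen after their values were seen.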

How the data were processed

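RNA of 31 organs was hybridised by the authors to 256 RAE230_2 arrays, 1 organ of 1 animal each. The authors deposited log2 values made with GCRMA, which subtracts background by probe sequence and summarises probes per probeset. Neither the GCRMA version nor whether organs were normalized together is stated (not given in the sources used here). Because such normalization equalises arrays, it can shift all differences, and values near 2 are background with little spread. Scans and probe intensities were not analysed here. The number of arrays limits the precision.

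Arrays were grouped by organ and sex from their titles. Organ means were fitted over all 256 arrays with limma 3.58.1 (R 4.3.3) without covariates. For the comparison with every other organ, the largest 1-sided p of the 30 contrasts was adjusted by Benjamini-Hochberg over 31042 probesets. The mean of the other organs was the unweighted mean of their 30 means. Sexes were compared with limma on the 10 stomach arrays. Calls required an adjusted p under 0.05, a difference above 1 and a mean above 6.65 (log2). The fits were tested on simulated data. Tables and figures were made with Python 3.11.15, numpy 2.4.6, pandas 2.3.3 and matplotlib 3.10.9.

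Of the probesets, 20826 had 1 gene symbol, 436 several and 9780 none, and 20758 matched the RefSeq gene table. A gene was represented by its probeset with the highest mean over the organs. Named were the 20 called genes with the largest difference from the highest other organ, 5 above and 5 below the mean of the others, the 10 with the largest SD in the stomach, those called between the sexes, the genes at the threshold and members of the lists. Members and lists were chosen with earlier results of these data known. The titles number the arrays, but no source used here ties a number to 1 rat across organs, so the fit has no such block. Alternatives were the number with its sex as a replicate block, a fit per pair of organs, other thresholds, other scalings, other sets of organs, each sex alone and leaving out arrays.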

Additional observations from a re-analysis of the deposited data

Results flagged for a closer look

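In 89 gene profiles over the 10 stomach arrays, 48 had 1 array far from the other 9 by Dixon's ratio. Chance gives such an array in about 1 of 20 groups that were not chosen by their values. The genes are not independent, since they were measured on the same arrays. The profiles tested were those of genes named in this report, and some were named for their values. The 10 genes chosen for the largest SD in the stomach are among them. The chance rate therefore does not apply to this set, and the count of 48 is descriptive only.

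Female 1 was that array for 29 genes and was the lowest array in all 29. Among genes of the parietal cell, it measured 13.32 for Atp4b, 7.67 for Kcnj15, 9.21 for Esrrg and 2.29 for Slc9a4. It measured 11.60 for Cblif. On the list of chief cell and digestive enzyme genes it measured 6.74 for Pga5, 10.81 for Ctse and 2.46 for Capn9. Its mucous cell genes measured 11.88 for Muc5ac, 14.10 for Gkn1, 13.33 for Gkn2, 13.70 for Tff1, 12.53 for Psca and 9.06 for Cldn18. Hormones and factors also stood low in female 1, at 9.23 for Ghrl, 7.36 for Sst, 2.36 for Foxa3 and 6.64 for Gata4. The steroid enzymes measured 9.30 for Hsd17b3, 7.14 for Cyp19a1 and 7.81 for Hsd17b6. Further low genes of female 1 were Slc5a5 at 6.91, Palldl1 at 11.10, Cystm1 at 11.01, Pla2g1b at 15.04, Clps at 11.54, Lgals4 at 8.40, Fabp2 at 4.79 and Anpep at 4.58. The means of the parietal (7.79), chief (6.85), mucous (10.47), endocrine (4.64) and transcription factor (5.32) lists were set apart in the same array.

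Female 3 stood apart in 8 squamous genes, at 2.07 for Sprr3, 2.23 for Krt13, 2.36 for Stfa3, 2.10 for Loricrin, 2.36 for Krt1, 2.53 for Sprr1a, 2.87 for Krtdap and 6.22 for Krt10. Of these 8, 7 are among the genes chosen for their SD, so that their profiles restate that choice. Male 1 was the highest array in 8 genes. It measured 9.51 for Cdh17, 8.55 for Alpi, 5.12 for Pdx1, 4.74 for Cdx2, 3.49 for Gip, 7.19 for Mme, 5.53 for Slc39a8 and 9.56 for Rab27b, and its intestinal list averaged 6.647. Single values set apart elsewhere were 5.20 for Pnlip in female 5, 3.90 for Gcg in male 3, 4.93 for Snap25 in male 2 and the T cell list of female 4 at 3.61.

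Of the 20 leading genes over the 9 duodenum arrays, 10 had such an array, which was female 1 for 9 of them. That array measured 11.68 for Atp4b, 10.90 for Atp4a, 7.74 for Cblif, 6.56 for Hsd17b3, 6.51 for Smim38, 8.95 for Barx1, 3.60 for Slc18a2 and 4.61 for Cyp19a1. The others, 2.28 for Rflna in the same array and 2.67 for Cym in duodenum female 2, lay near the bottom of the scale and within 1 log2 unit of the other arrays.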

How the results depend on the processing

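Of the 52 probesets above every other organ, 24 were called with a fit for each pair of organs and 14 when no stomach array was allowed to overlap any other array. Without the other gut organs 94 were called, including all 52, and leaving out 1 stomach array gave 50 to 64. Calls above the mean of the others numbered 798 at a 4-fold and 2691 at a 1.5-fold difference, and 1710 to 1812 when 1 stomach array was left out. Calls below it numbered 42 and 821 at these thresholds, 1566 without an expression threshold and 301 to 336 when 1 array was left out. No probeset fell below every other organ under any alternative. With the number and sex of the title as a replicate block the counts were 52, 0, 1729 and 313, and Atp4b and Atp4a stayed at 11.40 and 10.68. Deviations of stomach and other arrays of the same number were weakly correlated (median r 0.033 over 246 pairs, over 0.1 in 52), and 8 of the 10 stomach arrays correlated best with their own number, a hint from the data that is not stated in the design. The sex count was 66 with 1 fit over all organs and 6 under the other alternatives, and no paired analysis was possible because males and females are different animals. Alternatives chosen after seeing the data left out duodenum female 1 (53, 0, 1729 and 313), stomach female 1 and female 3 (66, 0, 1826 and 333), or stomach male 1 and duodenum female 1 (54, 0, 1722 and 324). The difference of Atp4b ranged from 9.96 with females alone to 12.36 with males alone. The females alone include duodenum female 1, where Atp4b measured 11.68 against 1.96 to 2.25 in the other duodenum arrays. Of 28 single genes, 9 lost a call under some alternative (15 of 672 values) and none reversed. Apart from the 6 leading genes lost with a fit per pair of organs, Mme, Aldh1a3 and Dact2 lost a call with fewer organs or with 1 sex. Centring the arrays moved the median difference from -0.09 to -0.12. Genes near the bottom of the scale in both groups have no measurable difference, and the causes of these changes were not tested.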
